A study of Mus musculus with 6 samples.

Results

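Imprinted growth-regulating genes were followed in tumor-associated macrophages (TAMs) of the ID8 ovarian cancer model. The 10 genes were H19, Igf2, Igf2r, Dlk1, Meg3, Peg3, Mest, Cdkn1c, Grb10 and Plagl1. They were chosen by gene symbol, as an imprinted network around H19 and Igf2, at a time when their TPM values in WT and C5aR-/- TAMs were already known. Their differences between these groups are therefore given as a description and carry no p-value. All 10 matched 1 row each among the 56980 genes of the deposited table. TPM is a transcript level scaled to length and to the library total, so that levels of different genes can be set side by side.

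WT mice were C57BL/6 females, and C5aR-/- mice were females of the C57BL/6 background that lack the C5a receptor C5aR in every cell, all bought at 6 to 8 weeks of age. Both groups received ID8 cells, a mouse ovarian surface epithelial cancer line, into the abdominal cavity. After 2 months, live CD45+CD11b+Ly6G-F4/80+ cells were sorted from the tumors, and poly(A) RNA was sequenced from 3 libraries per group, named WT TAM 1 to 3 and C5aR-/- TAM 1 to 3. The labels do not say whether each library came from 1 mouse. The paper describes the samples as mice but gives another number per group than the 3 libraries analysed here, so the libraries could not be tied to single mice and any p-value measures only the spread between them.

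Genomic imprinting leaves a gene active on the copy from 1 parent only, through DNA methylation marks set in the germ line. Many imprinted genes regulate fetal growth, are abundant in the embryo and placenta, and fall to low levels in most tissues after birth. In mice, Igf2, Dlk1, Peg3, Mest and Plagl1 are expressed mainly from the paternal copy, and H19, Igf2r, Meg3, Cdkn1c and Grb10 mainly from the maternal copy. IGF2 is a growth factor that signals through the IGF1 and insulin receptors, and IGF2R removes it from the cell surface to lysosomes. Parent of origin could not be read here, since TPM values do not separate the copies.

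The deleted gene, C5ar1, was at 86.5, 37.3 and 16.2 TPM in the WT libraries and at 0.38, 0.11 and 0.05 TPM in the C5aR-/- libraries, without overlap. Macrophage genes were present in every library, but their summed TPM over 12 genes varied from 2475 to 8850 in WT and from 2400 to 8724 in C5aR-/- TAMs, highest in library 1 of each group. Genes of other cells were abundant too. The summed TPM of 10 epithelial genes was between 1810 and 2315, and that of 8 mesothelial genes was from 1299 to 1733 in WT and from 800 to 1198 in C5aR-/- TAMs, which did not overlap. Of these 8 mesothelial genes, 7 had a lower mean in C5aR-/- TAMs and Msln was higher. The 8 neutrophil genes also summed higher in WT TAMs, at 634 to 2450 against 28.0 to 409. Among 6 mast cell genes, 5 were lower in C5aR-/- TAMs without overlap and Kit was higher. The sorting gate selects CD45+ and Ly6G- cells and should therefore leave out epithelial and mesothelial cells, which lack CD45, and neutrophils, which carry Ly6G. In bulk RNA from sorted cells, fewer cells of a type and less RNA per cell cannot be told apart.

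Of the 10 imprinted genes, 9 had a lower mean TPM in C5aR-/- than in WT TAMs, and Igf2r was higher. The values of the groups did not overlap for 5 genes. H19, Igf2, Meg3 and Grb10 were lower in all 3 C5aR-/- libraries than in any WT library, against 8.88% of the 28977 genes with a TPM above 0 in any library. Igf2r was higher in all 3, against 5.84% of those genes. Cdkn1c, Dlk1, Peg3, Mest and Plagl1 overlapped between groups. By parent of origin, mean TPM was lower for 5 of 5 paternally expressed genes, of which 1 did not overlap. It was lower for 4 of 5 maternally expressed genes, of which 3 did not overlap. For comparison, 8206 of the 14776 genes reaching 1 TPM in 3 or more libraries were lower by mean log2(TPM + 1). That set leaves out 6 of the 10 genes, among them all 5 paternally expressed ones, and its scale is not mean TPM. The paternally expressed genes had 6-library means of 0.11 to 0.45 TPM, and without WT TAM 1 Peg3 was higher in C5aR-/- TAMs. No pattern by parent is read from these counts. The summed TPM of all 10 genes was 42.6, 49.1 and 46.8 in WT TAMs and 49.85, 57.4 and 56.2 in C5aR-/- TAMs. This sum was higher in every C5aR-/- library, and most of it was Igf2r. Leaving Igf2r aside, the summed TPM of the other 9 genes was 11.5, 16.1 and 14.4 in WT TAMs and 4.93, 5.03 and 4.87 in C5aR-/- TAMs. That second sum leaves out the only gene with a higher mean and was formed with the values known. Of its 9 genes, 5 overlapped between groups. The largest differences in mean were those of H19 (4.79 in WT, 0.65 in C5aR-/- TAMs) and Meg3 (2.87 and 0.93).

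**Figure D1:**
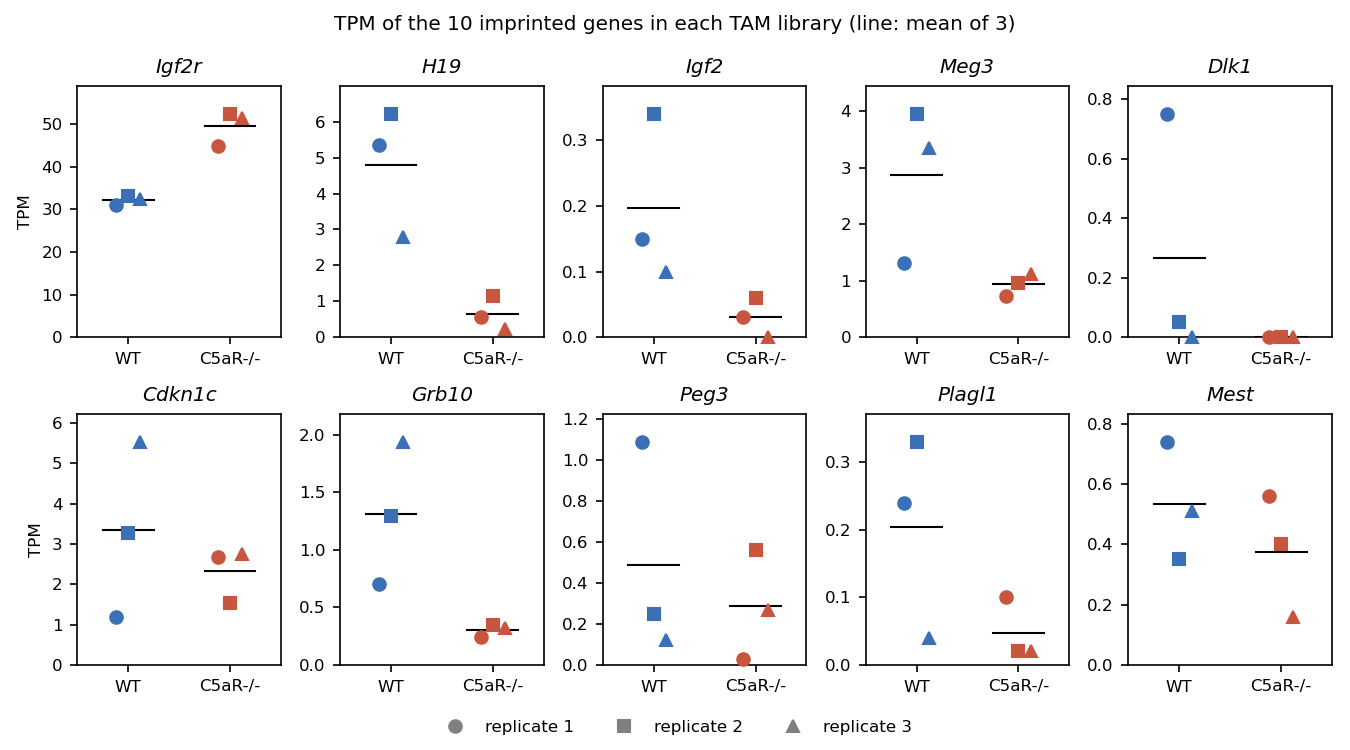
TPM (vertical axis, linear from 0, with its own scale in each panel) of the 10 imprinted genes in 3 WT and 3 C5aR-/- TAM libraries. Points are libraries, with the replicate number as symbol, and lines are means. The C5aR-/- points lie under all WT points for H19, Igf2, Meg3 and Grb10, and above them for Igf2r.

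Most of these genes were near the lower limit of the table. Igf2r, with a mean TPM of 40.9 over the 6 libraries, stood above Cdkn1c (2.83), H19 (2.72), Meg3 (1.90), Grb10 (0.81), Mest (0.45), Peg3 (0.39), Dlk1 (0.13), Plagl1 (0.12) and Igf2 (0.11). Only Igf2r was apart from its neighbor in this order, with a lowest library of 31.1 against a highest of 5.54 for Cdkn1c. Each of the other 8 pairs of neighbors overlapped. Igf2r and Cdkn1c reached 1 TPM in every library, and Igf2, Dlk1, Mest and Plagl1 were under 1 in every library. TPM keeps no read counts, so the counting error of these low values is unknown and a listed 0 can be a failed estimate.

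Genes that reached 1 TPM in 3 or more libraries entered the comparison of all genes with limma on log2(TPM + 1). H19, Igf2r, Meg3 and Cdkn1c passed this filter and the other 6 did not. H19 and Meg3 passed through their WT libraries, 3 of 3 of which were above 1, with 1 C5aR-/- library each. By the rule of a 2-fold change with an unadjusted p under 0.05, limma called 2.84% of the 14776 genes tested lower and 2.13% higher in C5aR-/- TAMs. At an adjusted p under 0.05 with the same fold change, limma called 0% of the tested genes (for 2133 the unadjusted p was under 0.05, whatever the fold). Nothing is read from these shares, since the genes were chosen with this comparison known.

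H19 is a long non-coding RNA made from the maternal copy next to Igf2, where it shares enhancers with that gene, and it is counted among the brakes on fetal growth. It lies on chromosome 7 at 142575529 to 142578143 on the minus strand (GENCODE M21 on GRCm38, the assembly named mm10 in the submitters' processing notes). It also carries the hairpin of the microRNA miR-675, which is shown because H19 differed most of the 10 genes and because the hairpin lies within annotated H19 exons, at chr7:142577064-142577147. The library measured polyadenylated RNA and gives no level of the mature microRNAs. The sequences are from RefSeq (GRCm38.p6), 5′ to 3′. In the hairpin the mature arms are in capitals, and in the mature arms the seed (bases 2 to 8) is in capitals.
miR-675 hairpin: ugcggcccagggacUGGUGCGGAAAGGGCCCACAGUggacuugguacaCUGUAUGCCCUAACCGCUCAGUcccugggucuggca
miR-675-5p: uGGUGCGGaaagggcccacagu
miR-675-3p: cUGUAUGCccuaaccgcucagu

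The TPM of H19 was 5.35, 6.22 and 2.79 in WT TAMs and 0.56, 1.15 and 0.24 in C5aR-/- TAMs. Every WT library was higher than every C5aR-/- library, and the gap lay between WT TAM 3 and C5aR-/- TAM 2. WT TAMs had a mean of 4.79 ± 1.78 (SD, n = 3), which was 7.36 times the C5aR-/- mean of 0.65 ± 0.46 (SD, n = 3). On the log2(TPM + 1) scale, which understates changes of low genes, the difference of C5aR-/- minus WT was -1.79 with a standard error of 0.34, and it was between -2.07 and -1.61 with any 1 library left out. Since the groups did not overlap, leaving out 1 library could not have changed the direction.

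Igf2, the neighbor of H19 on chromosome 7 (142650766 to 142666816, minus strand, 72622 bases away), was close to 0. Its TPM was 0.15, 0.34 and 0.10 in WT TAMs and 0.03, 0.06 and 0 in C5aR-/- TAMs. The groups did not overlap, though every value was under the filter of 1. H19 and Igf2 put the 6 libraries in the same order, with WT TAM 2 highest and C5aR-/- TAM 3 lowest. This order was also that of 80 (0.541%) of the other 14775 genes tested, and of the summed neutrophil genes. The summed neutrophil genes were 1034, 2450 and 634 in WT and 215, 409 and 28.0 in C5aR-/- TAMs. All 8 neutrophil genes and 7 of 8 mesothelial genes had a lower mean in C5aR-/- TAMs. The mesothelial gene Msln was higher, with a log2(TPM + 1) difference of 0.88. Wt1, the most abundant of the 8 mesothelial genes, differed by -0.10. The part of the neutrophil and mesothelial genes in the difference of H19 was not tested.

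**Figure D2:**
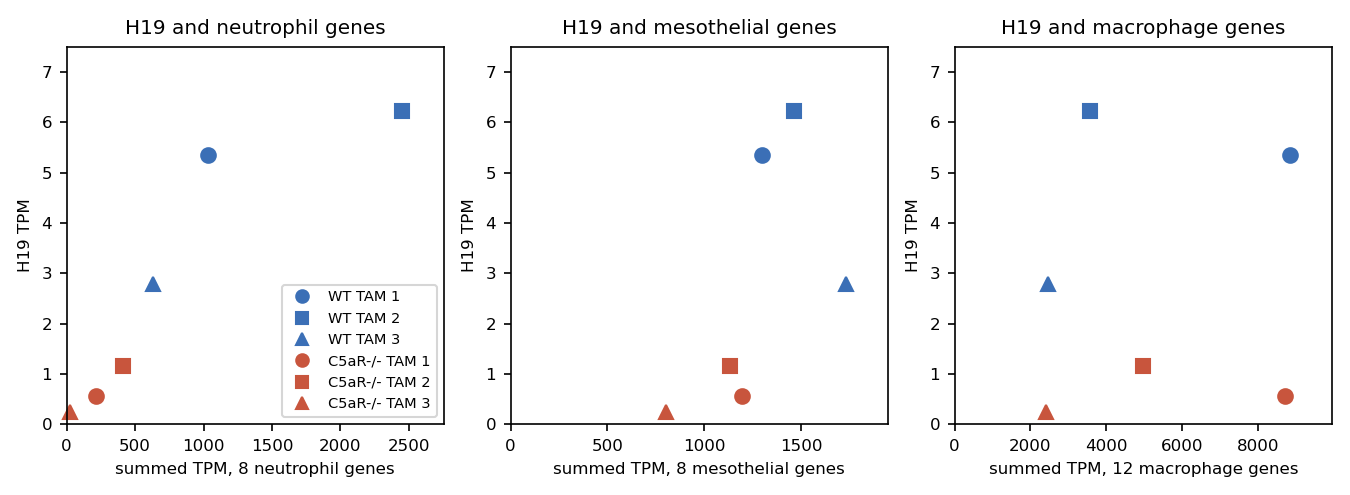
H19 TPM (vertical axis) against the summed TPM of 8 neutrophil, 8 mesothelial and 12 macrophage genes (horizontal axes, linear from 0) in each library. H19 and the neutrophil sum order the 6 libraries alike, whereas the macrophage sum is highest in library 1 of both groups, in which H19 was 5.35 and 0.56.

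The genes whose profile over the 6 libraries was closest to that of H19 were found by Euclidean distance between log2(TPM + 1) values centered on their mean, among 14443 tested genes with a symbol. They were Cdc42ep5 (distance 0.24), Pcp4l1 (0.31), Vsig1 (0.36), Tat (0.38) and Stum (0.53). Cdc42ep5, an effector of the GTPase CDC42, was at 13.6, 19.6 and 8.77 in WT and at 2.79, 4.73 and 2.28 in C5aR-/- TAMs. Stum was at 2.34, 3.21 and 1.07 in WT and at 0.04, 0.22 and 0.01 in C5aR-/- TAMs. For Igf2, whose centered values spanned only 0.42, the closest were Cacfd1 (0.062), Kif3b (0.092), Hnrnpc (0.094), Celf1 (0.10) and Dnajc10 (0.11), genes of higher level and small variation.

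Igf2r encodes the cation-independent mannose 6-phosphate receptor, which carries lysosomal enzymes to lysosomes and clears IGF2. It lies on chromosome 17 at 12682406 to 12769664 on the minus strand. Its TPM was 31.1, 33.1 and 32.4 in WT TAMs and 44.9, 52.3 and 51.3 in C5aR-/- TAMs. The 3 WT libraries were within 1.06 times of each other, and all C5aR-/- libraries were higher. The mean of 49.5 ± 4.02 (SD, n = 3) in C5aR-/- TAMs was 1.54 times that of 32.2 ± 1.02 (SD, n = 3) in WT TAMs. The log2(TPM + 1) difference was 0.60 (standard error 0.13) and stayed between 0.56 and 0.67 when single libraries were dropped, so the fold change stayed under 2. The summed TPM of macrophage genes overlapped between the groups, but 9 of the 12 genes had a higher mean in C5aR-/- TAMs, with a median log2(TPM + 1) difference of 0.51. Their part in the difference of Igf2r was not tested.

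Airn is a long RNA read across Igf2r in the opposite direction from the paternal copy, and it silences Igf2r on that copy in many tissues. It spans 12741311 to 12860136 of chromosome 17 on the plus strand and shares 28354 bases with Igf2r. Its TPM was 11.5, 17.1 and 17.6 in WT TAMs and 6.60, 11.9 and 11.3 in C5aR-/- TAMs, so the groups overlapped at WT TAM 1. The difference was -0.60 on the log2(TPM + 1) scale, with a standard error of 0.28 and an adjusted p of 0.388 from limma. It was between -0.78 and -0.35 with 1 library left out. The library kit marks strand, but the sources used here do not say whether strand was used for the estimates, so part of the reads of Airn and Igf2r may have been exchanged.

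Starts of genes were examined where neighboring or co-varying genes differed. RefSeq promoter windows (GRCm38.p6, from 250 bases before to 50 after the start) matched 8 of the 10 genes, all but H19 and Cdkn1c. Some genes have several starts, and Meg3 and Grb10 have a further window each, with 1 CpG and no TATA box for Meg3 and with 9 CpGs and no GC box for Grb10. Shown are the windows of Igf2r and Airn, which lie on opposite strands of 1 locus, and 1 window each of Meg3 and Grb10, which were lower in C5aR-/- TAMs. Capitals mark the letters of any of 4 motifs on either strand. The TATA box was searched as TATAAA. For the GC box, the site bound by SP1 and related factors, the letters were GGGCGG. A YY1 site was searched as GCCATNTT, and a PLAGL1-like site as GGGGCCCC. Sites that overlap run together.
Igf2r, chr17:12769657-12769956, minus strand: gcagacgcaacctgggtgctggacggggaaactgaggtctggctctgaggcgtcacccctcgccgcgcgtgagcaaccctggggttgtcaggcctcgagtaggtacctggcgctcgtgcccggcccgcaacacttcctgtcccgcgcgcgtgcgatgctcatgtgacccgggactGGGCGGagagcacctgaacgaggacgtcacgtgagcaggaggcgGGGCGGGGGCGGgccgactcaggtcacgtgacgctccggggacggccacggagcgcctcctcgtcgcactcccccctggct
Airn, chr17:12741061-12741360, plus strand: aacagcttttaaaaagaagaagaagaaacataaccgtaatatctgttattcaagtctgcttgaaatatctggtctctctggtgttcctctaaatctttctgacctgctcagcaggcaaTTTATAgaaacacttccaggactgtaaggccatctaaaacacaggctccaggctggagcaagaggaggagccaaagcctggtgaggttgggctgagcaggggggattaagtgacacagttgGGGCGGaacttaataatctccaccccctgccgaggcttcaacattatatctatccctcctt
Meg3, chr12:109540746-109541045, plus strand: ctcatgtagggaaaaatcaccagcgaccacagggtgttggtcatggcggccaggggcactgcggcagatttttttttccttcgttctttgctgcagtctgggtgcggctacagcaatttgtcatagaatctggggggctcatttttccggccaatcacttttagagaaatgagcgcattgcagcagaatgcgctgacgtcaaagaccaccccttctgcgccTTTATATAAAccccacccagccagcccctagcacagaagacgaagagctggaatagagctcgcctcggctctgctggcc
Grb10, chr11:12037371-12037670, minus strand: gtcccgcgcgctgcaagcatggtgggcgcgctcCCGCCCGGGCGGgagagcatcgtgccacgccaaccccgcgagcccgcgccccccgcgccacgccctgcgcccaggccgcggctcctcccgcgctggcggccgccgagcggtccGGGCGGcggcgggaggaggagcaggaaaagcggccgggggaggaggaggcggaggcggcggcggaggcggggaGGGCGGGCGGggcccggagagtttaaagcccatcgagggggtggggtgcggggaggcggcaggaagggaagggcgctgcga

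The Igf2r window held 34 CpG dinucleotides and 3 GC boxes. The Airn window held 3 CpGs, 1 GC box and 1 TATA box, whose letters lie on the strand opposite to Airn. The Grb10 window shown was the richest of those matched, with 45 CpGs and 5 GC boxes. The Meg3 window shown had 13 CpGs and 2 overlapping TATA boxes, 1 on each strand. Over all 32851 windows the median was 7 CpGs, 35.7% held a GC box, 13.6% a TATA box, 6.05% the YY1 letters and 1.08% the PLAGL1-like letters. Of the windows of the 10 genes, 1 of Peg3 held the PLAGL1-like letters and none held the YY1 letters. These matches describe letters only.

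Meg3 is a maternally expressed long non-coding RNA of the Dlk1-Dio3 locus on chromosome 12 (109541001 to 109571726, plus strand) and is known as a growth-restraining RNA lost in several tumors. Its TPM was 1.31, 3.95 and 3.35 in WT TAMs and 0.73, 0.95 and 1.12 in C5aR-/- TAMs. The groups came close at WT TAM 1 and C5aR-/- TAM 3 but did not overlap. The mean fell from 2.87 ± 1.38 (SD, n = 3) to 0.93 ± 0.20 (SD, n = 3), and the log2(TPM + 1) difference was -0.93 with a standard error of 0.34. With 1 library left out it was between -1.27 and -0.72.

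Rian, the next maternally expressed RNA of the locus, 32213 bases beyond Meg3, was under the filter. Its TPM was 0.72, 2.09 and 4.22 in WT and 0.45, 0.69 and 0.85 in C5aR-/- TAMs. WT TAM 1 lay within the C5aR-/- values for Rian, and it was also the lowest WT library for Meg3. Mirg, a host of microRNAs further along, was listed at 0, 0.55 and 0.46 in WT and at 0, 0.06 and 0 in C5aR-/- TAMs. Of the paternally expressed genes of this locus, Rtl1 and Dio3 were listed at 0 in every library. Dlk1, which encodes a transmembrane relative of Notch ligands that holds back differentiation, was at 0.75, 0.05 and 0 in WT and at 0 in all 3 C5aR-/- TAMs. Its mean thus rested on WT TAM 1.

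**Figure D3:**
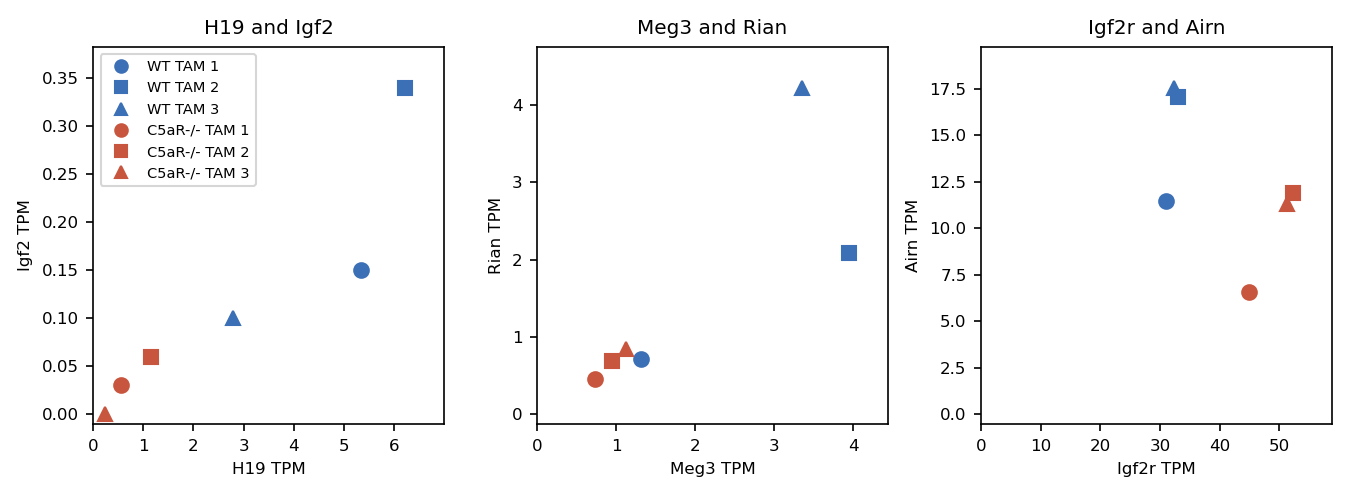
TPM of pairs of RNAs from 1 locus in each library (linear axes). In the left panel H19 and Igf2 rise together from C5aR-/- TAM 3 to WT TAM 2, in the middle panel WT TAM 1 (1.31 and 0.72) lies beside the C5aR-/- libraries for Meg3 and Rian, and in the right panel the groups are apart on the Igf2r axis and overlap on the Airn axis.

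Cdkn1c encodes p57KIP2, an inhibitor of cyclin-dependent kinases that stops the cell cycle. Its TPM was 1.20, 3.28 and 5.54 in WT TAMs and 2.68, 1.54 and 2.74 in C5aR-/- TAMs. WT TAM 1 was the lowest and WT TAM 3 the highest of all libraries, so the C5aR-/- values lay within the WT range. The means were 3.34 ± 2.17 (SD, n = 3) and 2.32 ± 0.68 (SD, n = 3). The log2(TPM + 1) difference was -0.27 with a standard error of 0.43, and without WT TAM 3 it was 0.09. Kcnq1ot1, the paternal RNA that silences Cdkn1c and was singled out for this role after its values were seen, was at 0.39, 0.59 and 0.62 in WT and at 0.29, 0.43 and 0.60 in C5aR-/- TAMs.

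Grb10, an adaptor that binds the insulin and IGF1 receptors and dampens their signal, was under the filter. Its TPM was 0.70, 1.29 and 1.94 in WT and 0.24, 0.35 and 0.32 in C5aR-/- TAMs. All C5aR-/- values were below the lowest WT value, with a mean of 1.31 ± 0.62 (SD, n = 3) against 0.30 ± 0.057 (SD, n = 3). On the log2(TPM + 1) scale the groups differed by -0.79, and by -0.99 to -0.60 when single libraries were dropped. Its neighbor Cobl, an actin nucleator, was at 4.44, 3.31 and 4.34 in WT and at 2.46, 2.23 and 1.13 in C5aR-/- TAMs. For Cobl limma gave -0.80 (standard error 0.27), an unadjusted p of 0.0214 and an adjusted p of 0.266, and it missed the fold change of 2, which it passed with a pseudocount of 0.1 (-1.08).

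The zinc finger transcription factors Peg3 and Plagl1 were low and variable. Peg3 was at 1.09, 0.25 and 0.12 in WT and at 0.03, 0.56 and 0.27 in C5aR-/- TAMs, and WT TAM 1 alone was above 1. Without that library its mean was higher in C5aR-/- TAMs, with a log2(TPM + 1) difference of 0.10 in place of -0.17. Plagl1, a regulator of the imprinted network, was at 0.24, 0.33 and 0.04 in WT and at 0.10, 0.02 and 0.02 in C5aR-/- TAMs, overlapping at WT TAM 3. Mest, which encodes a protein of the hydrolase fold, was at 0.74, 0.35 and 0.51 in WT and at 0.56, 0.40 and 0.16 in C5aR-/- TAMs. Its values overlapped, with C5aR-/- TAM 3 lowest. It shares 912 bases with Copg2 on the other strand, a coatomer subunit gene at 28.8, 30.5 and 38.1 in WT and at 28.6, 22.3 and 22.2 in C5aR-/- TAMs. For Copg2 limma gave -0.40 with an adjusted p of 0.366.

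**Figure D4:**
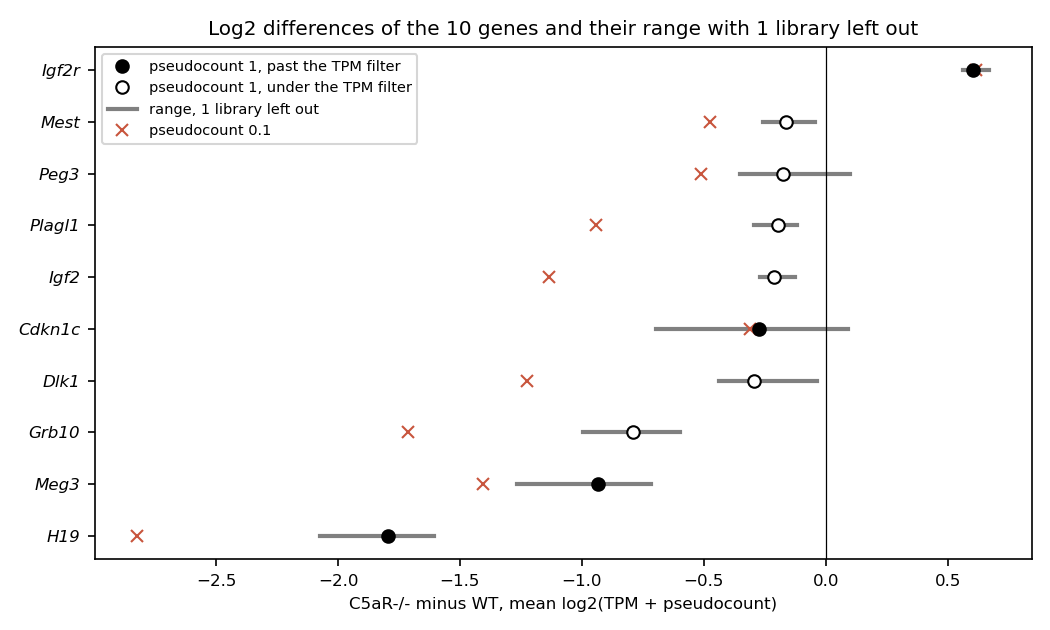
Difference of mean log2(TPM + pseudocount), C5aR-/- minus WT, for the 10 genes (horizontal axis). Points are the values with a pseudocount of 1, filled where the gene passed the TPM filter, bars span the fits with 1 library left out, and crosses are values with a pseudocount of 0.1. The bars of Peg3 and Cdkn1c cross 0, and the crosses of the low genes lie further from 0 than their points.

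Genes near the 10 genes, and other genes known to be imprinted, were described from hand-written lists. Whether any of them is imprinted in TAMs could not be read from TPM. Of 28 genes that neighbor the 10 genes, 10 were tested, 3 of them higher and 7 lower in C5aR-/- TAMs, with a median log2(TPM + 1) difference of -0.21 (-0.28 without C5aR-/- TAM 1 to -0.12 without C5aR-/- TAM 3), and limma called 0 at the unadjusted threshold. Over all 14776 genes tested the median was -0.05, with 6570 higher and 8206 lower. Near H19 on chromosome 7, the tetraspanin gene Cd81 was at 536 to 663 in WT and at 476 to 641 in C5aR-/- TAMs, the histone chaperone gene Nap1l4 at 69.8 to 87.0 and 64.5 to 72.2, and Tssc4 at 31.9 to 36.5 and 33.7 to 44.5, all overlapping. Ins2, Th and Phlda2 were at or near 0, with 0.42 of Ins2 in WT TAM 3 as their highest value.

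Of 32 imprinted genes from other loci, 17 were tested, 6 higher and 11 lower, with a median of -0.10 (-0.16 without WT TAM 3 to -0.04 without WT TAM 2). Limma called 1, Gatm, which encodes the first enzyme of creatine synthesis and is imprinted in the mouse placenta. Its TPM was 12.7, 12.5 and 18.5 in WT and 24.1, 21.9 and 53.8 in C5aR-/- TAMs, without overlap. The log2(TPM + 1) difference of Gatm was 1.04 with a standard error of 0.36 (limma, unadjusted p = 0.0242, adjusted p = 0.277), and it no longer passed without WT TAM 1, WT TAM 2 or C5aR-/- TAM 3 (0.64 without the last). The most abundant genes of this list overlapped between groups. Gnas, which encodes the stimulatory G protein alpha subunit, was at 600 to 754 in WT and 526 to 676 in C5aR-/- TAMs. Dcn, the matrix proteoglycan decorin, was at 373 to 531 and 180 to 548, and the chloride channel gene Ano1 at 112 to 126 and 68.3 to 130.

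Of 16 genes that set or keep imprints 13 were tested, and Ctcfl, Dnmt3l and Dppa3 were under 1 TPM in every library. Among those tested there were 6 higher and 7 lower, with a median of -0.02 and 0 called. Trim28, the corepressor that holds imprinting marks, was at 159, 174 and 172 in WT and 146, 176 and 179 in C5aR-/- TAMs. The insulator protein gene Ctcf was at 44.2 to 48.7 and 38.8 to 45.5, and the zinc finger gene Zfp445 at 44.1 to 72.0 and 39.2 to 62.8. For Zfp57, the other zinc finger protein that recognizes methylated imprints and was picked out after its values were seen, TPM was 22.5, 14.2 and 23.6 in WT and 6.93, 13.1 and 15.8 in C5aR-/- TAMs. The groups overlapped, and limma gave -0.74 with a standard error of 0.33 and an adjusted p of 0.375.

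In the IGF system around Igf2 and Igf2r, 16 of 17 listed genes were tested, 10 higher and 6 lower, with a median of 0.32. This median depended on single libraries, at 0.036 without C5aR-/- TAM 1, 0.088 without C5aR-/- TAM 2 and 0.14 without WT TAM 3, and was 0.098 with the filter raised to 5 TPM. Limma called 1 of them lower at the unadjusted threshold and 0 higher. This was Igfbp5, which encodes an IGF-binding protein of the extracellular matrix. Its TPM was 603, 866 and 843 in WT TAMs and 145, 148 and 92.0 in C5aR-/- TAMs. The lowest WT value was far above the highest C5aR-/- value, and the mean fell from 771 ± 146 (SD, n = 3) to 128 ± 31.3 (SD, n = 3). The log2(TPM + 1) difference of Igfbp5 was -2.59 with a standard error of 0.24 (limma, unadjusted p = 1.76e-05, adjusted p = 0.0666), and between -2.76 and -2.37 when single libraries were dropped. The adjusted p of Igfbp5 from limma was 0.0165 without C5aR-/- TAM 1, where it passed the threshold, and between 0.0699 and 0.386 without each of the other 5 libraries. Summed mesothelial genes were lower in C5aR-/- TAMs as well, though Msln was higher, and the part of mesothelial genes in the difference of Igfbp5 was not tested.

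The receptors through which IGF2 signals overlapped between groups. These receptors, M6pr, the 3 Igf2bp genes and Igf1 were named for their roles after their values were seen. Igf1r was at 15.2, 17.04 and 18.8 in WT and at 17.4, 19.4 and 16.1 in C5aR-/- TAMs, and Insr at 15.8, 13.9 and 11.7 against 22.85, 14.3 and 10.8. M6pr, the smaller mannose 6-phosphate receptor, which does not bind IGF2, was at 135, 130 and 135 in WT and at 129, 111 and 91.9 in C5aR-/- TAMs. Its groups did not overlap and its direction was opposite to that of Igf2r, with a limma difference of -0.28 and an adjusted p of 0.437. The 3 genes of IGF2 mRNA-binding proteins differed in direction. Igf2bp1 was at 2.01, 0.57 and 1.44 in WT and at 1.43, 6.31 and 5.43 in C5aR-/- TAMs, with a limma difference of 1.10 and an adjusted p of 0.365. Igf2bp2 was at 1.26, 4.28 and 2.10 in WT and at 2.21, 6.99 and 15.1 in C5aR-/- TAMs, with a limma difference of 1.16 and an adjusted p of 0.441. The means of both were higher in C5aR-/- TAMs, while the groups overlapped. Igf2bp3 was under the filter, at 0.61, 1.37 and 0.91 in WT and at 0.31, 0.25 and 0.51 in C5aR-/- TAMs, lower without overlap. The growth factor Igf1 was at 10.8, 15.6 and 4.22 in WT and at 44.1, 11.2 and 7.17 in C5aR-/- TAMs, so that its mean in C5aR-/- TAMs rested on 1 library. In every library Igf1 was far above Igf2. Igfbp6, a binding protein with a preference for IGF2, was at 823, 1109 and 1298 in WT and at 1117, 477 and 199 in C5aR-/- TAMs, and limma gave -1.16 with a standard error of 0.59 (adjusted p = 0.421), moving to -1.77 (adjusted p = 0.0761) without C5aR-/- TAM 1 and to -0.53 (adjusted p = 0.624) without C5aR-/- TAM 3. Igfbp7 was at 27.5, 22.4 and 50.1 in WT and at 9.33, 385 and 657 in C5aR-/- TAMs. C5aR-/- TAM 1 was thus below all WT libraries for Igfbp7, with the other two far above. The summed TPM of 10 fibroblast genes was 43.6, 81.0 and 121 in WT and 20.9, 98.8 and 307 in C5aR-/- TAMs, lowest in the same library. Col1a1 alone made up 43.3 and 236 of the sum in C5aR-/- TAM 2 and 3, whereas 7 of the 10 fibroblast genes had a lower mean in C5aR-/- TAMs, and Col1a2 (12.8 against 2.17) and Thy1 (21.8 against 5.96) were called lower. The part of fibroblast genes in this was not tested. For Igfbp7 limma gave 2.09 (standard error 1.48) and an adjusted p of 0.563, and without C5aR-/- TAM 1 it gave 3.96 and an adjusted p of 0.0165. The limma difference of Igfbp7 was 1.35 (adjusted p = 0.819) without C5aR-/- TAM 2 and 0.96 (adjusted p = 0.818) without C5aR-/- TAM 3.

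**Figure D5:**
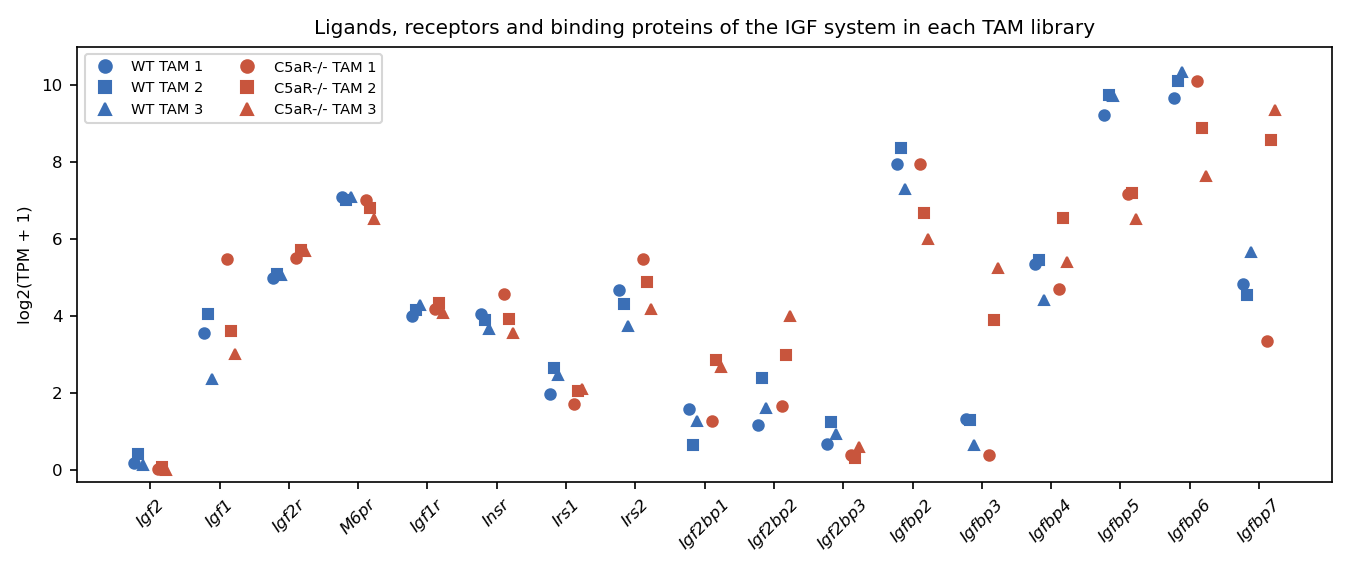
Level, as log2(TPM + 1), of IGF ligands, receptors, adaptors, IGF2 mRNA-binding proteins and IGF-binding proteins in each library. Igf2 lies near 0 in all libraries, the groups do not overlap for Igf2, Igf2r, Igfbp5, M6pr and Igf2bp3, and Igfbp7 in C5aR-/- TAM 1 lies apart from C5aR-/- TAM 2 and 3.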

How the data were processed

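Reads were cleaned by the authors (fastp), mapped (HISAT2), and assembled into transcripts whose levels StringTie estimated, in FPKM per the paper's methods. The submitters' processing notes add RSEM, DESeq2 and the build mm10; versions and annotation are not given in the sources used here. The deposited values are TPM per gene, beside columns of the authors' group means, which were left out.

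Symbols and coordinates came from GENCODE M21 (GRCm38), with 52073 of 56980 IDs matched. The 14776 genes that reached 1 TPM in 3 or more libraries were tested on log2(TPM + 1) with limma 3.58.1 (R 4.3.3, lmFit on group, eBayes with trend, Benjamini-Hochberg adjustment), after a check on simulated data. The rules for calls follow the paper's methods, whose count tests could not be run on TPM. Tables and figures were made with Python 3.11.15, pandas 2.3.3, numpy 2.4.6 and matplotlib 3.10.9. TPM gives no depth, so precision is known only from the 3 libraries per group.

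The genes and lists were chosen with earlier results of these data known. Named from each list, apart from the cell type lists, were the genes called and up to 3 tested genes with the highest mean TPM. For H19 and Igf2 the 5 closest genes were named. Other genes, among them Rian, Mirg, Rtl1, Dio3, Ins2, Th, Phlda2, Kcnq1ot1, Zfp57 and single cell type genes, were named outside this rule. Results were recomputed without each library in turn (filter applied again), with a replicate block, after median-of-ratios scaling or quantile normalization (of all genes, before the filter), with the filter raised to 5 TPM or dropped, and with 0.1 as pseudocount.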

Additional observations from a re-analysis of the deposited data

How the results depend on the processing

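With a pseudocount of 0.1 the log2 differences of low genes grew, to -2.82 for H19, -1.13 for Igf2, -1.22 for Dlk1, -1.40 for Meg3, -0.48 for Mest, -1.71 for Grb10 and -0.94 for Plagl1, as a smaller pseudocount shrinks low values less. Igf2r kept its direction under every alternative run. The differences of Peg3 (0.10 without WT TAM 1) and Cdkn1c (0.092 without WT TAM 3) changed sign. The other 8 genes kept theirs with any 1 library left out. For H19, Igf2, Igf2r, Meg3 and Grb10 the groups did not overlap, so the sign could not change in these fits. The same holds for Dlk1, which was at 0 in every C5aR-/- library. The ranges were -0.35 to 0.10 for Peg3, -0.694 to 0.0916 for Cdkn1c, -2.07 to -1.61 for H19, -0.27 to -0.13 for Igf2, 0.56 to 0.67 for Igf2r, -0.44 to -0.04 for Dlk1, -1.27 to -0.72 for Meg3, -0.26 to -0.05 for Mest, -0.99 to -0.60 for Grb10 and -0.30 to -0.12 for Plagl1.

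The 733 genes called at the unadjusted threshold became 475 when the filter was raised to 5 TPM (11177 genes), 811 with the replicate block, and 518 to 1220 with 1 library left out, highest without C5aR-/- TAM 1. The adjusted count of 0 became 0 to 349, again highest without C5aR-/- TAM 1, with 1 without C5aR-/- TAM 2 and 3 without C5aR-/- TAM 3. The block rests on replicate numbers that the labels do not tie to a shared batch. Same-numbered libraries had correlations of 0.19, -0.01 and 0.27 in their deviations from the group means. The summed macrophage and B cell genes fell from library 1 to 3 in both groups, whereas the mesothelial sum rose in WT and fell in C5aR-/- TAMs. Whether the numbers mark a pairing is therefore not known.

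Among the other genes named, small differences changed sign for Trim28 (0.020 with quantile normalization, 0.031 with median-of-ratios scaling), and with 1 library left out for Trim28 (-0.067 to 0.077), Cd81 (-0.197 to 0.0235), Dcn (-0.741 to 0.0587), Ano1 (-0.389 to 0.0676) and Phactr2 (-0.102 to 0.324). The median of imprint-keeping genes was above 0 in place of -0.016 without a filter (0.016), with quantile normalization (0.020), with median-of-ratios scaling (0.031), and in 3 of the 6 fits with 1 library left out (-0.055 to 0.032). The causes were not tested. Depth is unknown, which limits every value under a TPM of about 1.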
